A study of Mus musculus with 28 samples.

Results

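Tumour-infiltrating CD8+ T cells (TILs) that carried both Tim-3 and PD-1 were compared between mice given antibodies to both receptors (blockade) and mice given isotype control antibodies. The comparison used every bulk library of this sorted population in the treatment experiment, 3 after blockade and 3 after isotype, which is 6 of the 28 samples of the series. All genes that passed a filter on low counts were tested, 12710 of 20603. In both groups the hosts were wild type C57BL/6 mice bearing MC38-OVA tumours, a transplanted mouse colon carcinoma line engineered to make ovalbumin, and the time on the labels was day 12. Their age is not given in the sources used here, nor whether the libraries came from separate mice, so the p-values reflect only the spread between libraries, which may be technical. That spread was estimated over all 12 libraries of the treatment experiment, these 6 and 6 of another sorted population. Each library was made from about 2000 sorted cells by an adapted SMART-Seq2 protocol, which copies full-length mRNA from small inputs without molecular identifiers. Cells with both receptors are called double-positive and cells with neither double-negative. The other samples were 6 bulk libraries of double-negative TILs from the same treatment experiment, naive-like, memory-like and effector-like PD-1- subsets from untreated tumours, and single cells.

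PD-1 (Pdcd1) and Tim-3 (Havcr2) are receptors that restrain T cells after their antigen receptor has been engaged. T cells that meet antigen for a long time in a tumour come to carry both, together with other inhibitory receptors, cytotoxic granules and the transcription factor Tox, a state known as exhaustion. Antibodies that block the receptors are given to release this restraint, and the double-positive cells carry both of their targets.

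The blockade libraries held 10875486 to 13579262 expected counts and the isotype libraries 9526249 to 12037446. Between 11.4 and 15.04% of the counts after blockade, and between 13.3 and 14.5% after isotype, fell on ribosomal RNA (Rn45s). Levels are given as CPM, counts scaled to a common library size, and they are compared within a gene only, because they are not divided by gene length. Cd8a, the CD8 alpha chain, had 737, 768 and 803 CPM after blockade and 710, 645 and 762 CPM after isotype. Havcr2 had 391, 306 and 249 CPM after blockade and 285, 293 and 245 CPM after isotype, and Pdcd1 had 622, 596 and 628 CPM after blockade and 591, 544 and 531 CPM after isotype. Transcripts of the genes used for the sort were thus abundant in all 6 libraries and did not pass the test between treatments. Spearman correlations between libraries were 0.982 to 0.986 within groups and 0.978 to 0.984 between them.

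Blockade was followed by few changes that passed the test in single genes. With edgeR's quasi-likelihood test and a Benjamini-Hochberg adjusted p under 0.05, 8 of 12710 genes were called, which is 0.0629%. One (1, 0.00787%) was higher after blockade, Dnajb11, and 7 (0.0551%) were lower, among them Pdcd4 and 5 genes (Alas2, Hbb-b2, Hba-a2, Hbb-b1 and Apol11b) that were at or near 0 after blockade. DESeq2 called 63 genes, 6 of these 8 among them, and limma-voom called 1 (Apol11b). At an unadjusted p under 0.05 in edgeR there were 909 genes (7.15%), 445 higher (3.5%) and 464 lower (3.65%). Every blockade library lay above every isotype library in 1042 genes (8.2%) and below every isotype library in 1074 (8.45%). The median log2 fold change over all genes tested was -0.01 and 47.4% of genes had a value above 0, while the median size of a change, whatever its sign, was 0.17 on the log2 scale.

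Pdcd4, whose protein holds back translation by binding the helicase that unwinds mRNA for initiation, had 70.2, 77.0 and 98.0 CPM after blockade and 177, 140 and 153 CPM after isotype. Every blockade library lay below every isotype library. Pdcd4 fell, with a log2 fold change of -0.94 ± 0.14 (SE, 3 libraries a group, edgeR adjusted p = 0.0343). In the double-negative cells it fell as well, by 1.04 on the log2 scale (edgeR adjusted p = 0.00968). Dnajb11, a co-chaperone that works with the chaperone BiP in the endoplasmic reticulum (ER), had 141, 161 and 145 CPM after blockade and 75.0, 85.7 and 89.1 CPM after isotype. Its groups lay well apart, and it rose, with a log2 fold change of 0.84 ± 0.13 (edgeR adjusted p = 0.0343). Both calls sat near the threshold. Each kept its sign in all 24 alternatives and lost the call in 12 of them, the losing fits being edgeR and limma-voom. Pdcd4 was not called by edgeR without any 1 of the 3 double-positive isotype libraries, blockade replicate 1 or 2, double-negative isotype replicate 1, or double-negative blockade replicate 1 or 3 (adjusted p = 0.0584 to 0.266). Dnajb11 was not called by edgeR without any 1 of the 6 double-positive libraries or of the 3 double-negative blockade libraries (adjusted p = 0.0516 to 0.254).

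**Figure D1:**
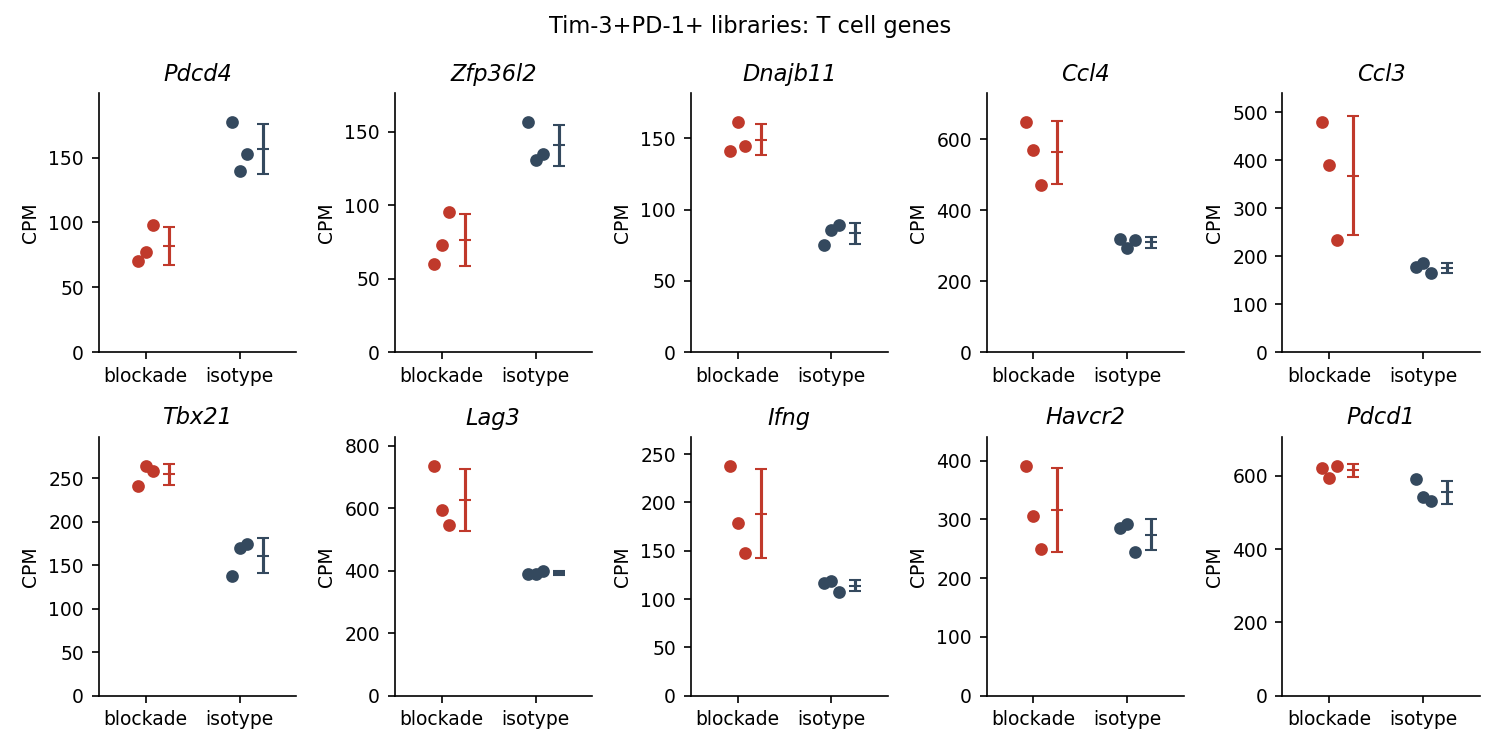
CPM of 10 genes in each of the 3 blockade (red, left) and 3 isotype (dark, right) libraries of Tim-3+PD-1+ TILs, with the mean and SD beside the points and every axis starting at 0. Pdcd4 and Zfp36l2 were below all isotype libraries, Dnajb11, Ccl4, Ccl3, Tbx21, Lag3, Ifng and Pdcd1 above them, and Havcr2 overlapped. Only Pdcd4 and Dnajb11 passed the test.

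Among the called genes, 4 are on the list of red cell and platelet genes. Alas2, which starts haem synthesis in developing red cells, had 0.392, 0.229 and 0.742 CPM after blockade and 44.6, 40.4 and 80.4 CPM after isotype. The groups were separated by a wide gap, and Alas2 fell, with a log2 fold change of -6.93 ± 0.47 (edgeR adjusted p = 3.86e-05). Hbb-b1, a beta globin gene, had no count in any blockade library and 210, 136 and 329 CPM after isotype, so it was at least 2750-fold lower after blockade, taking 3 counts over the blockade group as the floor. On the same floor, Hba-a2, an alpha globin gene, was at least 586-fold lower and Apol11b, an apolipoprotein L family gene, at least 52.9-fold lower. The edgeR adjusted p was 0.0125 for Hbb-b1, 0.00581 for Hba-a2 and 0.0108 for Apol11b. Hbb-b2 had 0, 0.153 and 0 CPM after blockade against 90.1, 89.7 and 150 CPM after isotype (edgeR adjusted p = 0.000668). Alas2, Hbb-b2 and Hba-a2 were called by edgeR whichever of the 12 libraries was left out. Hbb-b1 was not called without isotype replicate 1 or 3 or blockade replicate 1 or 2 (edgeR adjusted p = 0.0547 to 0.0825), nor was Apol11b without isotype replicate 1 or 3 (edgeR adjusted p = 0.0602 and 0.0644).

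A further pair of globin genes did not pass the test, and in these the blockade libraries differed among themselves. Hba-a1 had 0.0783, 13.7 and 7.23 CPM after blockade and 1430, 1114 and 2665 CPM after isotype, with an edgeR adjusted p of 0.12. Beta-s had 0, 12.9 and 7.70 CPM after blockade and 1161, 964 and 2036 CPM after isotype (edgeR adjusted p = 0.113). The globin genes are near-identical copies, so how reads were divided among them is uncertain, while their sum is not affected by that division. Summed, the 5 globin genes had 0.0783, 26.8 and 14.9 CPM after blockade and 2952, 2326 and 5241 CPM after isotype. Of the 9 genes of the red cell and platelet list that were tested, 4 were called, all lower, against 0.0551% of all genes, and 7 did not overlap downward (77.8%, against 8.45%), with a median log2 fold change of -6.98, which is also the median with the 2 genes at 0 counts placed at their bounds. In bulk libraries, fewer cells of a type and less RNA per cell cannot be told apart. The sum of this list was 6.27 to 19.7 CPM after blockade and 1411 to 3294 CPM after isotype, and its part in the results for other genes was not tested beyond a fit that left the list out.

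**Figure D2:**
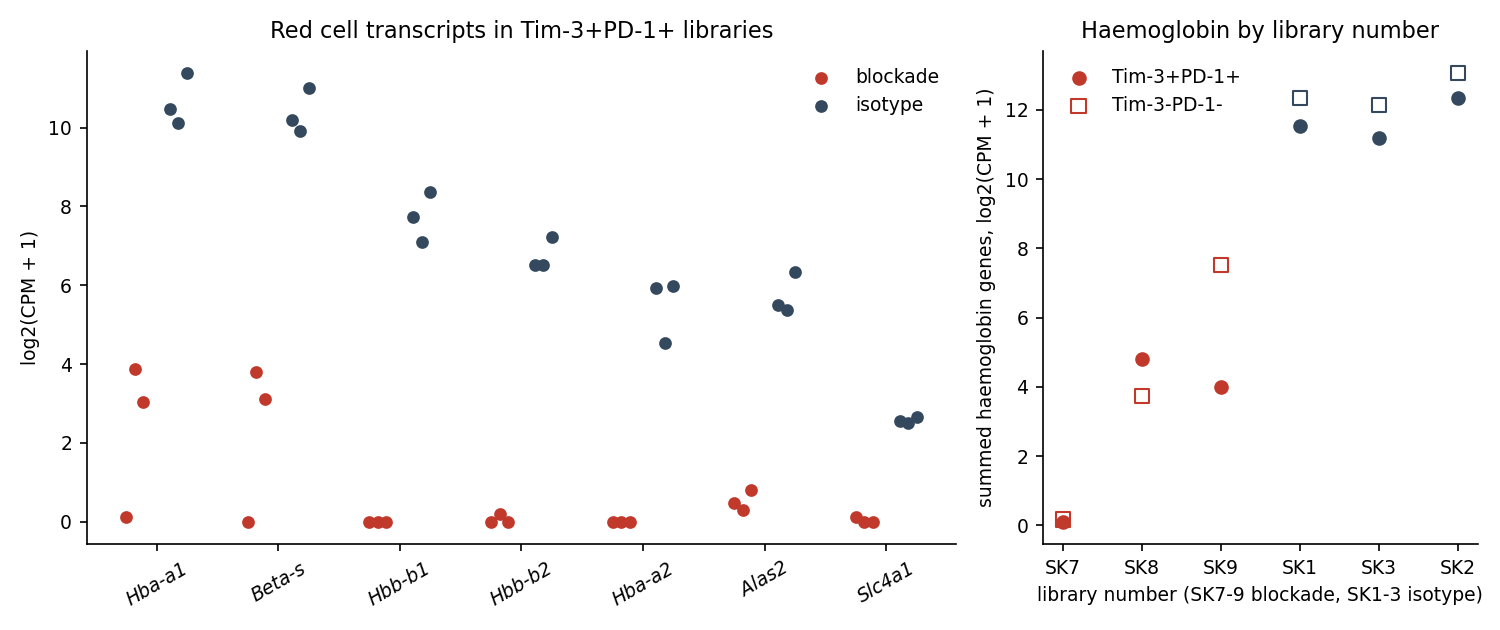
Left, log2(CPM + 1) of 7 red cell genes in each blockade (red) and isotype (dark) library of Tim-3+PD-1+ TILs. Right, the summed globin genes by library number on the same scale, for double-positive (filled circles) and double-negative (open squares) libraries of each number; all SK7 to SK9 libraries, from blockade, lay below all SK1 to SK3 libraries, from isotype.

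The ER genes around Dnajb11 were examined as a list of 25 genes of protein folding and the unfolded protein response, all tested. Dnajb11 alone was called, 16 of 25 had a log2 fold change above 0, and the median was 0.07, or 0.12 without blockade replicate 3. The groups did not overlap upward in 8 (32%, against 8.2% of all genes) and downward in 2 (8%, against 8.45%). Sdf2l1, which forms a complex with Dnajb11 in the ER, had 68.3, 80.3 and 70.1 CPM after blockade and 45.998, 51.2 and 54.0 CPM after isotype, without overlap (log2 fold change 0.53 ± 0.13, edgeR adjusted p = 0.324). Xbp1, a transcription factor of the unfolded protein response, had 127, 113 and 122 CPM after blockade and 89.1, 98.3 and 93.0 CPM after isotype (0.37 ± 0.13), again with no overlap. The lowest values of the list belonged to Chac1 (log2 fold change -0.97) and Trib3 (-0.58), which are known as targets of the Atf4 branch of ER stress, and their groups overlapped.

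Many chaperone genes carry an ER stress response element (ERSE), a bipartite motif bound by NF-Y together with Atf6 or Xbp1. Promoters from RefSeq (GRCm38.p6, 250 bases before to 50 after the start) were found for 23 of the 25 genes and searched on both strands for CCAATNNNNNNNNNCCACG, a motif chosen with the values of these genes known. It was held by 0.119% of all 32851 promoters and by 8 of the 23 genes: Hspa5, Hsp90b1, Pdia6, Calr, Canx, Dnajc3, Creld2 and Syvn1. These 8 had log2 fold changes of 0.03 to 0.31 with a median of 0.11, all above 0, and 3 did not overlap upward. The other 15 had values of -0.97 to 0.84 with a median of -0.15, 6 were above 0, and 4 did not overlap upward. Over all 14 tested genes with the motif, values ran from -1.80 to 0.31, 10 were above 0, 3 did not overlap upward and the median was 0.05. Dnajb11 lacks the full motif in this window and holds its CCACG part, a string found in 32.8% of all promoters and in 19 of the 23 genes. In Dnajb11 the bases attggc, which hold CCAAT read on the opposite strand, come directly before CCACG. That arrangement was not searched for in the promoters. Genes without the full motif, Dnajb11 among them, may therefore hold an ER stress element of another form. The promoters of the called gene and of 2 genes with the full motif are shown 5′ to 3′ on the strand of the gene, with CCACG (Dnajb11) or the full motif (Hspa5 and Creld2, the second on the opposite strand) in capitals. They lie at chr16:22857595-22857894, chr2:34771840-34772139 and chr15:88819396-88819695, all on the plus strand.
Dnajb11: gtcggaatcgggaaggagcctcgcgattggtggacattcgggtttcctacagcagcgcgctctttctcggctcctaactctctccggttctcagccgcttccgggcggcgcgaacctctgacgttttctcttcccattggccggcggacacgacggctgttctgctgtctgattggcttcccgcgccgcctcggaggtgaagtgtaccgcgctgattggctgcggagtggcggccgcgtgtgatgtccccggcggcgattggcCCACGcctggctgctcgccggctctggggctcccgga
Hspa5: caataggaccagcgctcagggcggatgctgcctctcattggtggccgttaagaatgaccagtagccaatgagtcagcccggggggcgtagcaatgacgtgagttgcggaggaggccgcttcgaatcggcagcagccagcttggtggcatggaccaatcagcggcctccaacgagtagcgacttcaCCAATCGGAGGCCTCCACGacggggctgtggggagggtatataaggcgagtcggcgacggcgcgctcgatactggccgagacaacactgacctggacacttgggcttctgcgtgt
Creld2: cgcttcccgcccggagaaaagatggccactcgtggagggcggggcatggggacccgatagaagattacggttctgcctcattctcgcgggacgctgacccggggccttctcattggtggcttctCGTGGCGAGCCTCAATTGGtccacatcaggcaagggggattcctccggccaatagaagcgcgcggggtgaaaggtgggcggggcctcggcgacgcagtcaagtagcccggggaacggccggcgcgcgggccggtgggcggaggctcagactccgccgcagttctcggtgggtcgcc
Hspa5, which encodes BiP itself, had 1021, 1121 and 963 CPM after blockade and 924, 915 and 951 CPM after isotype (log2 fold change 0.15 ± 0.08, or 0.09 without blockade replicate 2). Creld2, an ER-resident stress-induced protein, had 91.9, 83.7 and 78.0 CPM after blockade and 64.6, 74.8 and 65.1 CPM after isotype (0.31 ± 0.13). Neither pair of groups overlapped, and neither gene passed the test, with edgeR adjusted p of 0.764 and 0.671.

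Receptor engagement switches on immediate early genes within minutes, and these were higher on average after blockade without passing the test singly. All 26 genes of the list were tested, none was called, and all 26 had a log2 fold change above 0, against 47.4% of all genes. The groups did not overlap upward in 8 of 26 (30.8%, against 8.2% of all genes) and downward in 0. The median was 0.28, and it was also 0.28 in double-negative cells. Fos, part of the AP-1 transcription factor, had 557, 603 and 587 CPM after blockade and 401, 387 and 472 CPM after isotype (0.47 ± 0.14, edgeR adjusted p = 0.466). Nfkbid, a nuclear regulator of NF-kB, had 103, 111 and 109 CPM after blockade and 55.3, 59.98 and 89.0 CPM after isotype (0.66 ± 0.23, edgeR adjusted p = 0.597). Egr2, a zinc finger factor induced through the antigen receptor, had 23.5, 14.97 and 17.6 CPM after blockade against 9.58, 10.8 and 13.7 CPM after isotype. All blockade libraries lay above all isotype libraries in these 3 genes. Nr4a1 and Nr4a2, orphan receptors induced by the same signal, had log2 fold changes of 0.62 ± 0.16 and 0.49 ± 0.13, both without overlap (edgeR adjusted p = 0.343 and 0.405). The 26 genes of proximal antigen receptor signalling had a median of 0.06, with 17 above 0, and without isotype replicate 2 this median was -0.0005. Among them Cd6, a receptor that can restrain the signal, had 400, 377 and 354 CPM after blockade and 467, 565 and 490 CPM after isotype (-0.43 ± 0.10, edgeR adjusted p = 0.284).

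Chemokine genes, some made by activated CD8 T cells and some mainly by myeloid cells, had the highest list median, 0.86. In double-negative cells their median was 0.36. All 9 had a log2 fold change above 0, against 47.4% of all genes, and 5 did not overlap upward (55.6%, against 8.2%), though none was called. The highest value was that of Cxcl9, a chemokine that myeloid cells make under interferon-gamma, with 9.71, 0.687 and 3.25 CPM after blockade and 1.5965, 0.906 and 0.335 CPM after isotype, with overlap (2.27 ± 0.81, edgeR adjusted p = 0.618). Ccl4, a chemokine that attracts T cells and myeloid cells, had 647, 570 and 470 CPM after blockade and 320, 292 and 316 CPM after isotype (0.86 ± 0.18, edgeR adjusted p = 0.193). Ccl3, its close relative, had 479, 391 and 233 CPM after blockade and 177, 186 and 165 CPM after isotype (1.06 ± 0.24, edgeR adjusted p = 0.287). The blockade libraries spread more widely than the isotype libraries in both genes, and the first blockade library was the highest. Xcl1, which attracts cross-presenting dendritic cells, had 66.7, 42.5 and 35.1 CPM after blockade and 28.1, 16.2 and 33.3 CPM after isotype (0.89 ± 0.33). In the same libraries the summed myeloid markers were 1097, 802 and 611 CPM after blockade and 597, 539 and 583 CPM after isotype, and myeloid cells also make Ccl3 and Ccl4. The part of these markers in the chemokine values was not tested.

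Of 22 cytotoxic genes, 17 were above 0, 4 did not overlap upward (18.2%, against 8.2% of all genes) and 0 downward. Their median was 0.31, or 0.16 without blockade replicate 1, and it was 0.74 in double-negative cells. Ifng, the cytokine of type 1 immunity, had 238, 179 and 147 CPM after blockade and 116, 119 and 107 CPM after isotype (0.72 ± 0.20, edgeR adjusted p = 0.442). Gzmb, the protease of cytotoxic granules, had 3253, 3140 and 2199 CPM after blockade and 2108, 2148 and 1914 CPM after isotype (0.48 ± 0.22, edgeR adjusted p = 0.704). Prf1 (perforin, 0.36 ± 0.22) overlapped between treatments, with values of 0.21 without blockade replicate 2 and 0.57 without blockade replicate 3. Gzma, a granule protease, had 251, 104 and 83.9 CPM after blockade and 82.7, 103 and 78.4 CPM after isotype (0.74 ± 0.45). Its first blockade library stood above the rest, and without it the log2 fold change was 0.12. Tbx21, the transcription factor T-bet that drives Ifng, had 241, 264 and 258 CPM after blockade and 138, 170 and 175 CPM after isotype (0.66 ± 0.15, edgeR adjusted p = 0.246). Tbx21 was called with the 6 libraries alone (edgeR) and so were Lag3 and Ccl4.

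Co-inhibitory genes did not form a uniform group. Of 29 tested members, 22 were above 0, 10 did not overlap upward (34.5%, against 8.2% of all genes) and 2 downward (6.9%, against 8.45%). The median was 0.16, and it was 0.18 in double-negative cells. Lag3, an inhibitory receptor that binds MHC class II, had 736, 595 and 545 CPM after blockade and 388, 390 and 399 CPM after isotype (0.67 ± 0.16, edgeR adjusted p = 0.314). Tox, the exhaustion factor, had 57.5, 70.9 and 90.5 CPM after blockade and 51.0, 30.1 and 41.3 CPM after isotype (0.84 ± 0.23, edgeR adjusted p = 0.44). In both, all blockade libraries lay above all isotype libraries. Entpd1 (CD39, an ectonucleotidase) had a log2 fold change of 0.35 ± 0.16 and no overlap. Tigit (0.03 ± 0.21) and Ctla4 (0.06 ± 0.22), 2 further inhibitory receptors, overlapped and had values close to 0, as did the transcription factors Eomes (-0.04 ± 0.24) and Prdm1 (0.06 ± 0.22).

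Genes of quiescence and memory gave no shared direction. The 20 progenitor and memory genes had a median of -0.04 with 9 above 0, and the 19 naive and homing genes a median of -0.01 with 9 above 0. Tcf7, the factor of stem-like T cells, had 20.3, 19.9 and 17.3 CPM after blockade and 22.8, 25.1 and 28.8 CPM after isotype (-0.41 ± 0.22, edgeR adjusted p = 0.748). Bcl2, a survival protein, had 54.9, 40.3 and 55.1 CPM after blockade and 65.4, 73.0 and 83.4 CPM after isotype (-0.56 ± 0.20). Blockade lay below isotype without overlap in both genes. Zfp36l2, an RNA-binding protein that promotes mRNA decay and holds back division, had 60.2, 73.0 and 95.5 CPM after blockade and 156, 131 and 135 CPM after isotype (-0.88 ± 0.17, edgeR adjusted p = 0.14). Il7r, the interleukin-7 receptor chain, had a log2 fold change of -0.04 ± 0.15.

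The 2 arms of the cell cycle lay on opposite sides of 0. Of 34 DNA replication genes, 31 had a log2 fold change above 0, 15 did not overlap upward (44.1%, against 8.2% of all genes) and 0 downward, and the median was 0.21. Of 38 mitotic genes, 5 were above 0, 1 did not overlap upward (2.63%) and 7 downward (18.4%, against 8.45%). The mitotic median was -0.14, or -0.08 without blockade replicate 2. No member of either list was called. Mcm2, a subunit of the replicative helicase, had 253, 294 and 262 CPM after blockade and 213, 233 and 217 CPM after isotype (0.29 ± 0.09, edgeR adjusted p = 0.509). Ung, which removes uracil from DNA, had 24.05, 29.02 and 22.8 CPM after blockade and 17.5, 14.6 and 11.5 CPM after isotype (0.80 ± 0.22, edgeR adjusted p = 0.404). Chaf1a, a histone chaperone at the replication fork, had 63.9, 65.1 and 64.1 CPM after blockade and 40.3, 47.9 and 39.6 CPM after isotype (0.60 ± 0.21). In all 3 genes the groups did not overlap. Nusap1, a spindle protein, had 111, 104 and 108 CPM after blockade and 137, 130 and 143 CPM after isotype (-0.34 ± 0.28, edgeR adjusted p = 0.883). Mki67, which marks cycling cells in all phases, had 169, 162 and 180 CPM after blockade and 195, 172 and 204 CPM after isotype, with overlap. Cdkn1b (p27), an inhibitor of entry into S phase, had 26.9, 25.97 and 31.2 CPM after blockade and 42.5, 38.7 and 39.8 CPM after isotype (-0.53 ± 0.16, edgeR adjusted p = 0.509), and Ccne1, the cyclin of that step, was 0.32 ± 0.14. In double-negative cells the medians had the other signs, -0.17 for replication and 0.14 for mitosis, and the difference between the 2 populations was not tested for the lists.

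**Figure D3:**
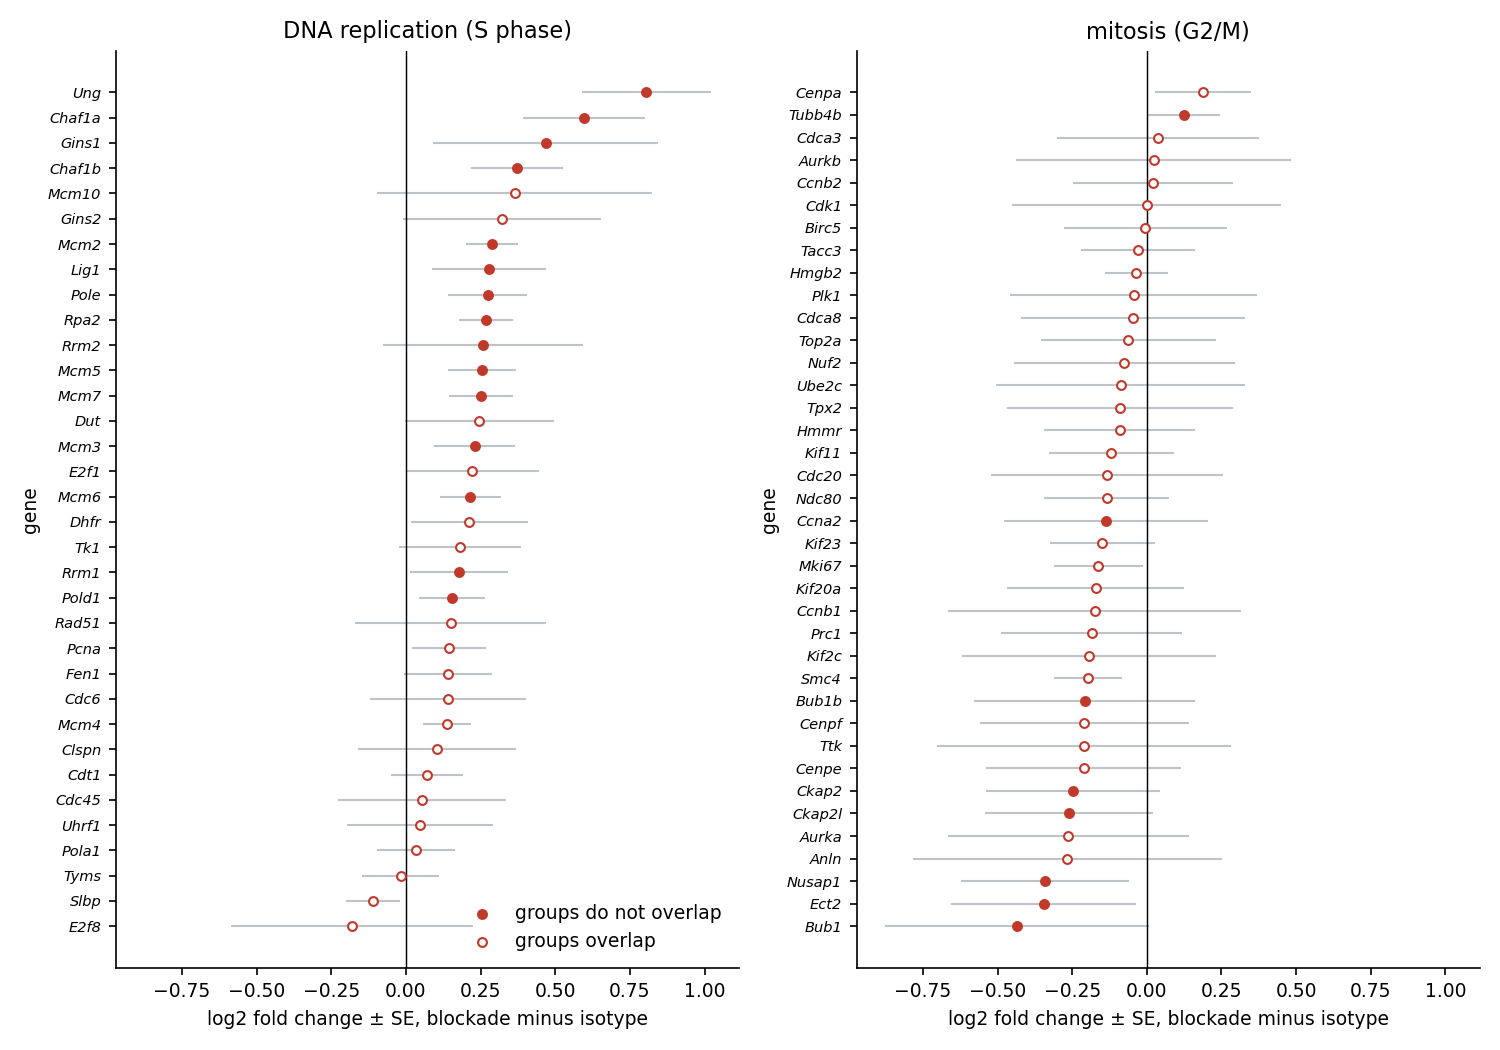
Log2 fold change ± SE (blockade minus isotype) of each tested member of the DNA replication list (left, 34 genes) and the mitosis list (right, 38 genes), filled where no blockade library overlapped the isotype libraries. Replication genes lay mostly right of 0 (31 of 34) and mitotic genes mostly left (33 of 38).

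Several lists of basic cell machinery had small medians above 0. Proteasome subunits were above 0 in 29 of 31 members, with values of -0.09 to 0.59 and a median of 0.12, and 14 did not overlap upward (45.2%, against 8.2% of all genes). Psmd3, a subunit of the regulatory particle, had 135, 139 and 128 CPM after blockade and 66.2, 101 and 99.6 CPM after isotype (0.59 ± 0.16, edgeR adjusted p = 0.404). The MHC class I presentation genes were above 0 in 14 of 19 with a median of 0.18, respiratory chain genes in 37 of 44 with 0.09, actin and motility genes in 31 of 37 with 0.15, and lysosomal genes in 22 of 26 with 0.19. Without isotype replicate 2 the presentation median was 0.11, and the respiratory chain median was 0.05 without isotype replicate 2 or blockade replicate 2 and 0.15 without blockade replicate 1. Lysosomal genes ran from -0.29 to 0.84 and actin genes from -0.20 to 0.45. Among them Cyc1, cytochrome c1 of the respiratory chain, had 164, 175 and 160 CPM after blockade and 134, 135 and 132 CPM after isotype (0.32 ± 0.10). Cfl1, the actin-severing protein cofilin, was 0.23 ± 0.07 and Ctsb, a lysosomal protease, was 0.25 ± 0.09, both without overlap. The 11 CD8 T cell marker genes tested were themselves above 0 in 9 members with a median of 0.16, which was 0.08 without isotype replicate 2 and 0.25 without isotype replicate 3. Their sum was 6658 to 7183 CPM after blockade and 5716 to 6952 CPM after isotype, and its part in the medians of similar size was not tested. Glycolysis genes (13 of 26 above 0, median -0.003) and ribosomal proteins (34 of 56, median 0.02) stayed near 0. Chromatin genes had 7 of 31 above 0 and a median of -0.04, which leaving out 1 library moved between -0.06 and -0.02.

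**Figure D4:**
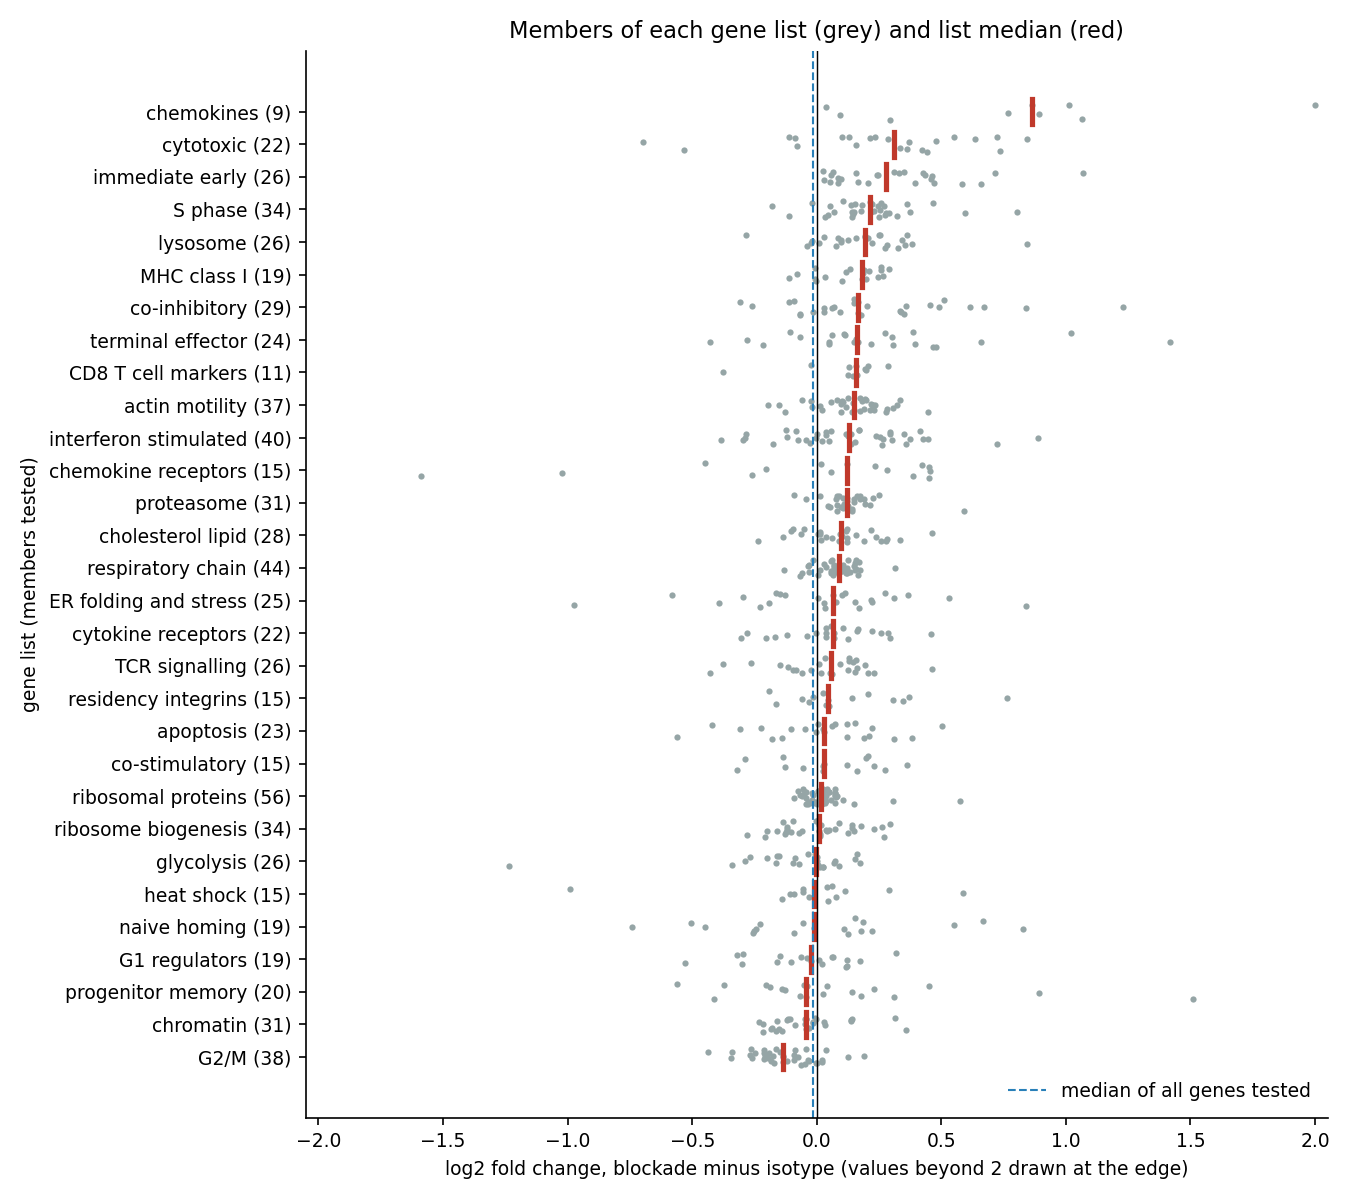
Log2 fold change (blockade minus isotype) of every tested member of 30 gene lists, 29 of T cell state and cell machinery and the CD8 T cell markers (grey points, one row a list with the number tested) and the list median (red bar), ordered by median. Among these 30, which leave out markers of other cells and genes of the PD-1- subsets, chemokine genes lay highest (median 0.86) and mitotic genes lowest (-0.14), and the dashed line marks the median of all genes (-0.01).

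Interferon-stimulated genes were above 0 in 27 of 40 members, with 5 non-overlapping upward (12.5%, near the 8.2% of all genes) and 0 downward. Their median was 0.13, which was 0.04 without blockade replicate 3 and 0.06 without isotype replicate 1 or 2, and was 0.20 without blockade replicate 2 and 0.21 without isotype replicate 3. Ly6a (Sca-1) had 872, 669 and 799 CPM after blockade and 599, 510 and 646 CPM after isotype (0.41 ± 0.15, edgeR adjusted p = 0.62). Irf1, an interferon-induced transcription factor, overlapped between treatments (0.43 ± 0.19). Genes that distinguish the PD-1- subsets of the series from each other gave medians of 0.05 for the 22 effector-like genes and 0.0002 for the 58 naive-like genes. The 5 memory-like genes had a median of -0.19.

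Genes listed as markers of other cells were detected in all libraries, and some lists differed in their sums between treatments. Of 23 myeloid markers tested, 20 were above 0, 8 did not overlap upward (34.8%, against 8.2% of all genes) and none was called. The median was 0.65, or 0.39 without blockade replicate 1. Fcgr1, a macrophage Fc receptor, had 32.0, 24.9 and 16.7 CPM after blockade and 10.2, 10.7 and 9.12 CPM after isotype (1.30 ± 0.43, edgeR adjusted p = 0.59). Cd4 had 8.77, 8.63 and 5.01 CPM after blockade and 3.49, 1.11 and 2.59 CPM after isotype (1.64 ± 0.34, edgeR adjusted p = 0.193). All blockade libraries lay above all isotype libraries in both genes. The summed CD4 and regulatory T cell markers were 416 to 578 CPM after blockade and 394 to 496 CPM after isotype. Of 8 tested, 6 were above 0, while Cd40lg (-0.32) and Zbtb7b (-0.12) were below. Ctla4, also a co-inhibitory gene, was the largest, with means of 340 CPM after blockade and 327 CPM after isotype. Dendritic cell markers summed to 1404 to 1646 CPM after blockade and 1097 to 1440 CPM after isotype. Irf8 was the largest of these, with means of 388 CPM after blockade and 241 CPM after isotype. Of 21 tested, 14 were above 0 and 7 below, from Siglech (-2.88) to Cd209a (4.38). Which cells these transcripts came from was not tested. NK and gamma-delta T cell markers summed to 101 to 184 CPM after blockade and 98.4 to 117 CPM after isotype. B cell markers summed to 4.28 to 7.05 CPM after blockade and 4.49 to 8.12 CPM after isotype, with Blk at 0 in both groups. Tumour and stromal markers summed to 435 to 702 CPM after blockade and 478 to 785 CPM after isotype. The red cell and platelet list was the one in which the sums of the groups lay apart by the widest gap, and the myeloid sums also did not overlap. The part of these markers in the other results was not tested.

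**Figure D5:**
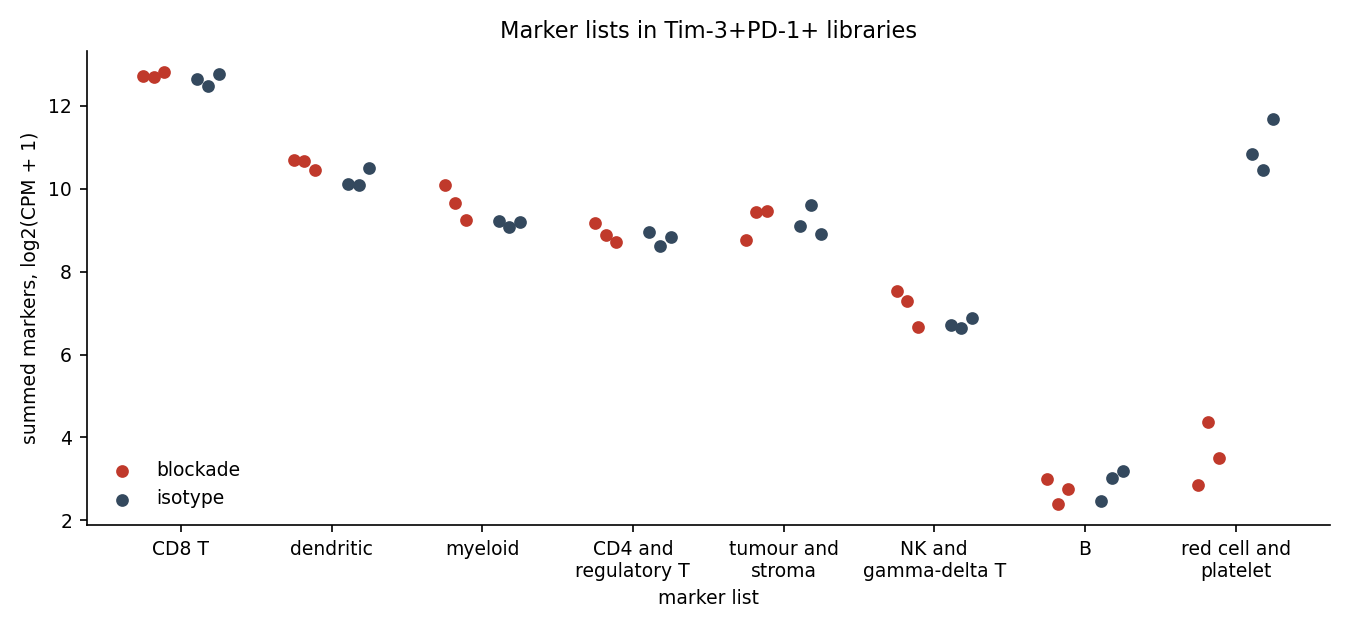
Summed markers of 8 cell types, as log2(CPM + 1), in each blockade (red, left) and isotype (dark, right) library of Tim-3+PD-1+ TILs. The red cell and platelet sums lay at 6.27 to 19.7 CPM after blockade and 1411 to 3294 CPM after isotype, and the CD8 T cell sums overlapped between treatments.

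Blockade effects were set beside those in double-negative TILs, which were sorted from the same experiment and have their own isotype libraries. There edgeR called 142 of 12710 genes (1.12%). The difference between the 2 effects was tested in the same edgeR fit, and no gene passed (0 of 12710), with 1070 (8.42%) at an unadjusted p under 0.05. DESeq2 called 113 and limma-voom 0. Havcr2 rose in double-negative cells, with 18.001, 21.6 and 36.4 CPM after blockade and 6.32, 2.93 and 2.48 CPM after isotype (log2 fold change 2.72 ± 0.34, edgeR adjusted p = 0.00713). Its change in double-positive cells was 0.20 ± 0.26 (0.04 without blockade replicate 1 and 0.37 without blockade replicate 3), and the difference of -2.51 ± 0.43 had an edgeR adjusted p of 0.192. For Dnajb11 the change in double-negative cells was 0.15 ± 0.13 and the difference 0.69 ± 0.18 (edgeR adjusted p = 0.309), so a change particular to the double-positive cells was not shown. Cd4 had the smallest adjusted p for the difference among the genes described here, 0.152 with edgeR, and lay below 0 in double-negative cells (log2 fold change -1.05 ± 0.25).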

How the data were processed

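Bulk RNA-seq libraries of about 2000 sorted cells were read as deposited. The submitters' processing notes name TopHat, RSEM, DESeq and mm9, with no role or version. The deposited table holds expected counts per gene made by the authors, of which 30.5% were not whole, and these were rounded to whole numbers. The authors' second deposited table holds a normalized signal, used for its library factors in one alternative. All 12 libraries of the treatment experiment were fitted as 4 group means in edgeR 4.0.16 (R 4.3.3; filterByExpr with a minimum count of 10, TMM, quasi-likelihood test, no block), with calls made where the Benjamini-Hochberg adjusted p was under 0.05. The common biological coefficient of variation was 0.229. The code was tested on simulated data. Totals of 9526249 to 13579262 counts limit genes with few counts, and floors cover counting error only, since there were no molecular identifiers. Printed SEs come from the fit and include the spread between libraries.

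Members and lists (37, with 3 more from the subset experiment) were chosen with earlier results of these data known. Genes were named by a rule: sort genes, 20 T cell state genes, called genes, up to 12 next by p in each direction without overlap, and up to 4 of each list. Egr2, Chac1, Trib3, Hspa5 and Creld2 were chosen after their values were seen, as were the other promoter genes. Some genes that met the rule are not reported here. A list is described by counts and medians, with no set test. Alternatives were other scalings, filters, tests (DESeq2 1.42.0, limma-voom 3.58.1), blocks, libraries and genes left out.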

Additional observations from a re-analysis of the deposited data

How the results depend on the processing

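The 8 calls were unchanged with RLE size factors, with the factors of the deposited normalized table and without Rn45s (8 shared of 8 in each). The count was 17 with no filter on low counts, 63 with DESeq2 (6 shared), 1 with limma-voom (Apol11b), 1 with limma-voom and a replicate block by library number, 4 with a replicate block by title number (3 shared), 16 with the 6 libraries alone and 48 with those 6 and a replicate block by title number. Title numbers were not taken to pair the libraries. Same-numbered deviations correlated at -0.02, 0.03 and 0.0988, which with 3 libraries a group cannot tell whether they were paired. Without the red cell and platelet list, an alternative chosen after seeing the data, 2 were called, Apol11b among them. Leaving out 1 library gave 3 to 9 calls, with 3 without isotype replicate 1, 4 without isotype replicate 3, and 5 without blockade replicate 1 or 2. Alas2 and Hbb-b2 lost the call only with the pair of limma-voom fits. The difference from double-negative cells gave 0 calls in the main fit, 7 with no filter, 113 with DESeq2, 1 with the replicate block by title number and 0 to 3 with 1 library left out. The cause of these moves was not tested. Log2 fold changes near 0 changed sign with 1 library left out: Il7r ranged over -0.1425 to 0.1728, Tigit over -0.05565 to 0.1185, Ctla4 over -0.0274 to 0.1548, Eomes over -0.1659 to 0.08892 and Prdm1 over -0.05254 to 0.2428. List medians kept their sign under all alternatives for immediate early (0.21 to 0.34), replication (0.16 to 0.28), chemokine (0.60 to 1.001), proteasome (0.08 to 0.17) and mitotic genes (-0.16 to -0.08), and changed sign for glycolysis, ribosomal protein, memory and naive genes.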

Other observations

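Libraries of double-positive and double-negative cells carry shared numbers (SK1 to SK3 and SK7 to SK9), and the labels do not say what a number stands for. Summed globin genes in the isotype libraries had the same order by number in both populations. SK2 had 5241 CPM in double-positive and 8555 CPM in double-negative cells, SK1 had 2952 and 5214 CPM, and SK3 had 2326 and 4530 CPM. After blockade SK7 was lowest in both, with 0.078 and 0.127 CPM. SK8 had 26.8 and 12.4 CPM, and SK9 had 14.9 and 184 CPM. Deviations from the group means over all genes correlated between the populations at -0.01 to 0.33 for the 6 numbers.

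Genes outside the lists also lay apart without passing the test. Slc35b2, which carries the sulfate donor into the Golgi, had 75.2, 81.3 and 83.5 CPM after blockade and 58.2, 57.3 and 53.3 CPM after isotype (log2 fold change 0.51 ± 0.09, edgeR adjusted p = 0.113). Ubash3b, a phosphatase that dampens antigen receptor signalling, had 97.9, 81.9 and 86.1 CPM after blockade and 65.5, 57.4 and 65.7 CPM after isotype (0.50 ± 0.10, edgeR adjusted p = 0.182). Xpa, a DNA excision repair factor, had 18.7, 22.99 and 19.8 CPM after blockade and 10.9, 11.5 and 11.6 CPM after isotype (0.85 ± 0.17, edgeR adjusted p = 0.173). Fech, the last enzyme of haem synthesis, chosen after its values were seen, had 26.6, 32.4 and 33.5 CPM after blockade and 49.9, 44.8 and 52.7 CPM after isotype (-0.67 ± 0.13, edgeR adjusted p = 0.14).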
